A study of Mus musculus with 8 samples.

Results

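Rgs2, Cmtm3, Fabp5, Etnk2, Trip6, Tafa5, Shisa3 and Hap1 are 8 of the 17121 genes in a table of mouse testis RNA-seq, and all 8 were among the 17066 that passed the filter on low values. They were chosen by measured values, because the libraries of the genotype groups separate most tightly in them, so everything said of them between the groups is a description and carries no test. Ranked by limma's moderated t, a difference divided by its error, the 8 lay among the first 13 genes of the table, with Rgs2 first, Cmtm3 second and Tafa5 in place 13. The other 5 genes of those 13 were Trim26, Pmaip1, Arpc1b, Rpl10 and Akr1b8. The moderated t was 7.66 for Tafa5, the last of the 8, and 7.62 for Islr, the gene ranked next.

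The series compares testes with the genotype labels CTL and N6amt1-SKO, 4 libraries each, to ask what N6AMT1 does in the prophase of meiosis. N6AMT1 is a methyltransferase that works with the partner protein TRMT112. The labels give neither strain nor age nor the allele or Cre driver behind SKO, and whether each library is a different animal is not said. A p-value here therefore reflects library-to-library spread, part of which may be technical. Testis is the labelled tissue, although heart ventricles appear in the extraction protocol. Summed normalised values of 13 spermatocyte markers were 737017 to 870061 in CTL and 551867 to 611439 in SKO-labelled libraries. Those of 5 heart muscle markers were 2225 to 2875 and 4277 to 6869. The 6 others of that list, Actc1, Nppa, Nppb, Mb, Myl2 and Myl3, are absent from the authors' values.

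Values are the authors' scaled read counts, put on a common scale between libraries by TMM factors and called normalised values here. Library 4 of the N6amt1-SKO group is written SKO 4, and so on. The log2 fold change is the difference of mean log2(value + 5), SKO-labelled minus CTL. It understates the change of low genes. About 40.6 to 70.1 M reads (M for 10 to the power of 6) lay behind each of the 6 libraries whose scaling could be read from the values, which put 228 to 8765 reads behind each member's value there. 18S ribosomal RNA took 0.721% to 0.969% of the values in CTL 3, CTL 4 and SKO 4 and 0.173% to 0.273% in the other 5 libraries, a division that crosses the groups. The share of mitochondrially encoded genes was 1.13% to 1.99% among CTL and 2.11% to 4.53% among SKO-labelled libraries. N6amt1 itself had 513 ± 84.5 in CTL and 582 ± 31.0 in SKO-labelled libraries (SD, n = 4 each; limma adjusted p = 0.437). A value summed over a whole gene cannot show a deleted exon, so N6amt1 does not check the labels.

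The testis makes sperm in tubules where Sertoli cells nurse the germ cells, from spermatogonia through meiotic spermatocytes to spermatids. Around the tubules lie contractile myoid cells, and between them Leydig cells, which make androgens, macrophages and vessels. RNA from whole testis is a mixture of all of these, and a smaller share of a cell type cannot be told apart from less RNA per cell of that type. No source used here places the 8 genes in a testis cell type. Their products work in different places: at G proteins inside the cell (RGS2), in membranes (CMTM3), on lipids (FABP5, ETNK2), at cell adhesions (TRIP6), outside the cell (TAFA5), in the endoplasmic reticulum (SHISA3) and on vesicle transport (HAP1).

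Rgs2 ranked first by moderated t among the genes that stood higher in the SKO-labelled libraries, and Shisa3 stood lower. The stretches of 250 bases just before the start of each are shown, to set promoters of genes with opposite directions side by side. They are RefSeq sequence of GRCm38.p6, read 5′ to 3′ on the gene's strand, at chr1:144004150-144004399 (minus strand) and chr5:67607633-67607882 (plus strand). Capitals mark GGGCGG (the GC box, CCGCCC on the other strand) and CCAAT.
Rgs2: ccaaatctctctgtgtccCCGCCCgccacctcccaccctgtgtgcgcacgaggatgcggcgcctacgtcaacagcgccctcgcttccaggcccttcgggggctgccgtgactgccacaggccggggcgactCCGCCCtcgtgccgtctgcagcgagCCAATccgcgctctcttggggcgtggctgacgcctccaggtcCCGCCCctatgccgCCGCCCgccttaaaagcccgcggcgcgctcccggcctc
Shisa3: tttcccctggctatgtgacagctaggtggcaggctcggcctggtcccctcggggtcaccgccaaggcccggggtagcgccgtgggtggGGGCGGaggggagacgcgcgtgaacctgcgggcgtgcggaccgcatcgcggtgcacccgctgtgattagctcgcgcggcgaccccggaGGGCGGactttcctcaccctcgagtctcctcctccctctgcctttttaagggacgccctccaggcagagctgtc

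Both stretches are rich in G and C, 72.4% in Rgs2 and 69.6% in Shisa3, with 30 and 25 CpG sites. Rgs2 held 4 GC boxes and 1 CCAAT, and Shisa3 held 2 GC boxes. Of the 8 genes 7 had such a window in the table of promoters, Fabp5 being the exception, and Tafa5 and Hap1 had a second window. A GC box stood in the windows of 6 of these 7 genes and not in those of Hap1. Of all 32851 windows of the same length, 32.7% held GGGCGG on either strand. That share counts windows rather than genes and was not limited to genes tested here, so it is no matched background. RefSeq and GENCODE starts can differ. The window of Cmtm3 and the second window of Tafa5 lie inside the gene as GENCODE places it. That of Trip6 lies partly inside, and those of Rgs2 and Shisa3 reach in slightly. The median GC content was 65.2% over the 9 windows of the members and 52.4% over all windows. Hap1 had the lowest, at 52% and 52.8%. The motif TGACGTCA was found in Trip6 alone among these 7 genes (1.55% of all windows), in the part of its window inside the gene. CCAAT was found in Rgs2 alone (33.8%). TATAAA (12.4% of all windows), AAGGTCA (4.08%) and AACAAT (9.42%) were found in none of the members' windows. Matches on both strands were searched, and GC boxes that overlap each other were counted separately.

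The genes lie apart from each other in the genome. In GENCODE M21 on GRCm38, Rgs2 is at chromosome 1, 143999338 to 144004161, and Etnk2 at chromosome 1, 133363572 to 133380336. Trip6 is at chromosome 5, 137309654 to 137314404, and Shisa3 at chromosome 5, 67607882 to 67623552. Cmtm3 is at chromosome 8, 104339410 to 104347672, Fabp5 at chromosome 3, 10012548 to 10016607, Hap1 at chromosome 11, 100347327 to 100356128, and Tafa5, listed there as Fam19a5, at chromosome 15, 87544299 to 87759364. In Shisa3 138 exon bases (2.9%) overlap Atp8a1 on the opposite strand, and the library kit does not mark strand. No exon base of the other 7 genes overlaps an exon of another gene.

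Of the 8 genes 6 stood higher and 2 lower in the SKO-labelled libraries, by 1.97 to 2.65 times on the log2 scale of the fit, and in none of the 8 did the groups overlap. Over the whole table the SKO-labelled libraries all lay above the CTL libraries for 15.6% of genes and all below for 10.6%. limma called 11.9% of genes higher and 7.93% lower at an adjusted p below 0.05, and all 8 members were among those called. Since the members were picked for this separation, their counts add nothing to these shares. By absolute log2 fold change they ranked from 169 (Trip6) to 1006 (Hap1) of 17066, at 0.98 to 1.41 where the median over all genes was 0.39. Their pooled SDs were 0.0544 (Cmtm3) to 0.219 (Trip6) on the log2 scale, where the median was 0.317. Both the size and the spread entered the choice of the genes.

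Rgs2 encodes a regulator of G-protein signalling that shortens signals from the Gq class of G proteins. Its normalised values were 1777, 1781, 1704 and 1962 across CTL libraries 1 to 4 against 3859, 4189, 4014 and 4181 across SKO-labelled libraries 1 to 4. The lowest SKO-labelled library was 1.97 times the highest CTL library. The means were 1806 ± 110 and 4061 ± 157 (SD, n = 4 each), a log2 fold change of 1.17. The 4 libraries of each group lay within 0.203 (CTL) and 0.118 (SKO-labelled) log2 units of each other.

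Cmtm3, which encodes a membrane-spanning protein of the CKLF-like MARVEL family, was the gene with the largest difference relative to its spread, 21.0 pooled SDs. It had 1071, 1114, 1104 and 1056 across CTL libraries 1 to 4 against 2295, 2429, 2556 and 2344 across SKO-labelled libraries 1 to 4. The coefficient of variation among CTL libraries was 2.51%, the smallest of the 8 genes in either group. The means were 1086 ± 27.3 and 2406 ± 115 (SD, n = 4 each), a log2 fold change of 1.14.

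The members that handle lipids were Fabp5 and Etnk2. Fabp5 encodes a fatty acid-binding protein that carries fatty acids and retinoic acid inside the cell. It had 858, 911, 655 and 787 across CTL libraries 1 to 4 against 2251, 1748, 2186 and 2234 across SKO-labelled libraries 1 to 4. SKO 2 stood below the other SKO-labelled libraries, and still at 1.92 times the highest CTL library. The means were 803 ± 111 and 2105 ± 239 (SD, n = 4 each), a log2 fold change of 1.39. Etnk2 encodes an ethanolamine kinase, which starts the making of phosphatidylethanolamine from ethanolamine. Its values were 7244, 6089, 6009 and 6407 across CTL libraries 1 to 4 against 11935, 13037, 13434 and 13435 across SKO-labelled libraries 1 to 4. The high CTL library and the low SKO-labelled library were both number 1, and between them lay a factor of 1.65, the narrowest gap among the 8 genes. The means were 6437 ± 565 and 12960 ± 709 (SD, n = 4 each), a log2 fold change of 1.01.

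Trip6 and Tafa5 had the largest pooled SDs of the 8 genes, 0.219 and 0.209 on the log2 scale. Trip6 encodes a LIM-domain protein of the zyxin family found at cell adhesions. Its values were 821, 734, 662 and 549 across CTL libraries 1 to 4 against 1648, 1878, 2169 and 1646 across SKO-labelled libraries 1 to 4, so that the highest SKO-labelled library was SKO 3. The means were 691 ± 115 and 1835 ± 248 (SD, n = 4 each), a log2 fold change of 1.41, the largest of the 8. Tafa5 encodes a small secreted protein of a chemokine-like family. It had 561, 458, 410 and 465 across CTL libraries 1 to 4 against 1059, 1151, 1511 and 1107 across SKO-labelled libraries 1 to 4, again with SKO 3 highest. The means were 474 ± 63.3 and 1207 ± 206 (SD, n = 4 each), a log2 fold change of 1.34.

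The members that stood lower were Shisa3 and Hap1. Shisa3 encodes a protein of the endoplasmic reticulum that holds back Wnt and FGF receptors. It had 4348, 4368, 4711 and 5286 across CTL libraries 1 to 4 against 2490, 2448, 2161 and 2145 across SKO-labelled libraries 1 to 4. Its lowest CTL library was 1.75 times its highest SKO-labelled library. The means were 4678 ± 438 and 2311 ± 183 (SD, n = 4 each), 2.02-fold lower. Hap1 encodes huntingtin-associated protein 1, which links cargo to microtubule motors. It had 5526, 5664, 6826 and 6293 across CTL libraries 1 to 4 against 3126, 2822, 3050 and 3292 across SKO-labelled libraries 1 to 4. The 2 CTL libraries with more 18S, CTL 3 and CTL 4, were its highest. The means were 6077 ± 601 and 3073 ± 195 (SD, n = 4 each), 1.97-fold lower.

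**Figure D1:**
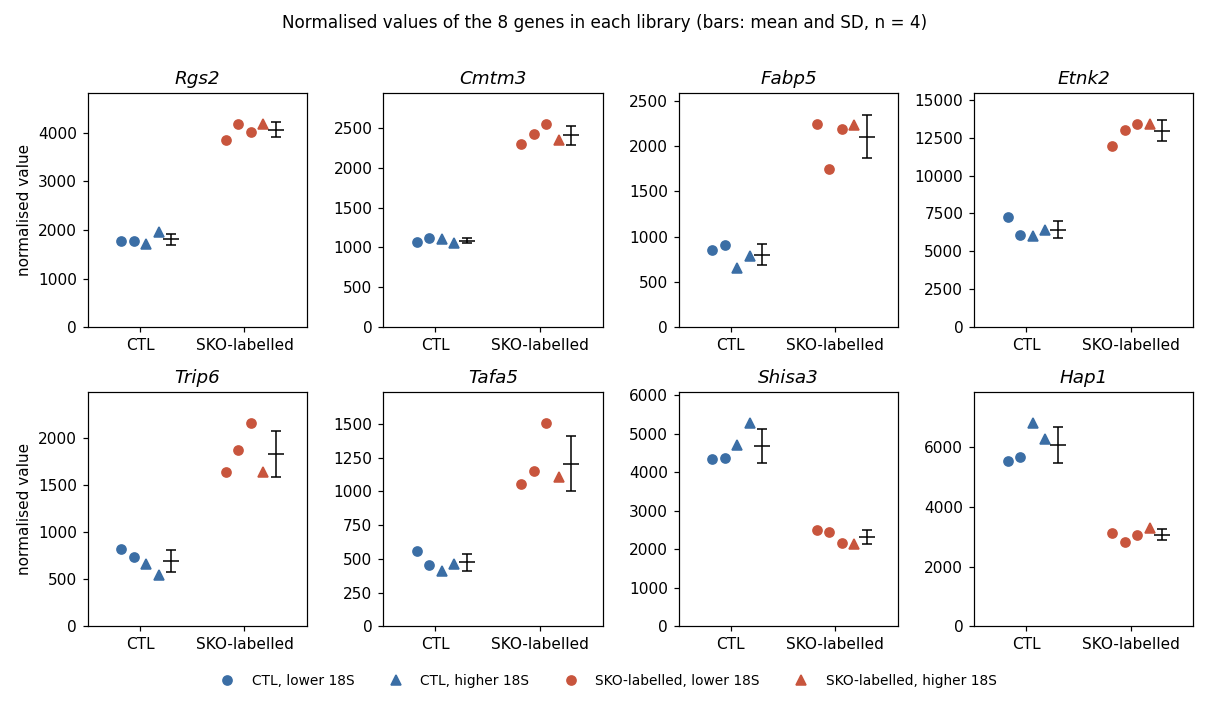
Normalised value (vertical axis, from 0) of each of the 8 genes in the 4 CTL and 4 SKO-labelled libraries, with the mean and SD of each group beside the points and triangles for libraries with more 18S. The groups do not overlap in any panel, and the triangles are the highest CTL libraries for Shisa3 and Hap1.

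Per kilobase of exon, the order of the genes differed between the groups. In CTL libraries Hap1 had the highest level, 1614 ± 160 per kb, followed by Etnk2 (1410 ± 124), Shisa3 (984 ± 92.1), Rgs2 (498 ± 30.3), Cmtm3 (364 ± 9.14), Trip6 (285 ± 47.5), Fabp5 (225 ± 31.1) and Tafa5 (163 ± 21.8; SD, n = 4 each). The ranges of Hap1 and Etnk2 overlapped, as did those of Trip6 and Fabp5 and of Fabp5 and Tafa5. Ranges leave out that both genes were read in the same libraries, and the order within each library was not compared. In SKO-labelled libraries Etnk2 led with 2838 ± 155 per kb, Rgs2 had 1120 ± 43.2, Hap1 816 ± 51.9 and Cmtm3 806 ± 38.4. Trip6 (756 ± 102), Fabp5 (590 ± 67.1), Shisa3 (486 ± 38.6) and Tafa5 (415 ± 70.8; SD, n = 4 each) followed. The ranges of Hap1, Cmtm3 and Trip6 overlapped with each other, as did those of Fabp5, Shisa3 and Tafa5.

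To relate the 8 genes to testis cell types, their changes were set beside marker lists. The heart muscle list, with only 5 tested markers, had the median closest to the higher members, 1.01. Among lists with more than 5 tested markers, the Sertoli list had the closest median. The list holds 24 Sertoli markers, of which 16 passed as risen, 0 as fallen and 8 not at all (11.9% of all genes rose), with a median log2 fold change of 0.98, where the median of all genes was 0.04. Amh, the anti-Müllerian hormone gene, was the called marker with the largest change (log2 fold change 1.63, SE 0.42, limma adjusted p = 0.0285). Of 12 peritubular myoid markers 6 rose and 0 fell (median 0.62), led by Tcf21, which rose 2.11-fold (limma adjusted p = 0.0193). Of 15 spermatogonial markers 4 rose and 0 fell (median 0.55), led by Stra8, a marker of the entry into meiosis (2.07-fold, limma adjusted p = 0.0137). Of 16 macrophage markers 4 rose and 0 fell (median 0.56), led by the MHC class II gene H2-Aa (2.56-fold, limma adjusted p = 0.0122). For Leydig markers (2 of 14 risen, 0 fallen, median 0.19) and endothelial markers (2 of 12 risen, 0 fallen, median 0.10) the share risen was near that of all genes, 11.9%. Their called genes with the largest change were Hsd3b1 (2.06-fold, limma adjusted p = 0.0122) and Robo4 (2.25-fold, limma adjusted p = 0.0169).

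The lists for later germ cells had medians below 0. Of 13 spermatocyte markers 4 fell and 1 rose (median -0.39). Adam2, a sperm surface gene, was 1.75-fold lower (limma adjusted p = 0.0122), and the recombinase gene Dmc1 rose 1.76-fold (limma adjusted p = 0.0192). Of 17 spermatid markers none passed (median -0.17), and the most abundant, Tnp2, had 86708 ± 56455 and 61973 ± 54396 (SD, n = 4 each; limma adjusted p = 0.714). Summed over the list, spermatid markers came to 124634 to 778330 in CTL and 186475 to 632355 in SKO-labelled libraries. Among blood, heart and epididymis markers, Alas2 was 2.07-fold lower (limma adjusted p = 0.0252; 1 of 5 red blood cell markers), Tnni3, for cardiac troponin I, rose 2.90-fold (limma adjusted p = 0.0122; 2 of 5 heart markers, median 1.01), and the epididymis gene Rnase10 did not pass (limma adjusted p = 0.200). Sertoli markers summed to 121401 to 248461 in CTL and 248641 to 478103 in SKO-labelled libraries, and myoid markers to 46061 to 49784 and 63489 to 75015. Much of the Sertoli sum was Clu, with 24238 to 100477 in CTL and 74708 to 215849 in SKO-labelled libraries. Clu was not called (limma adjusted p = 0.0651). The part of these lists in the values of the 8 genes was not tested.

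**Figure D2:**
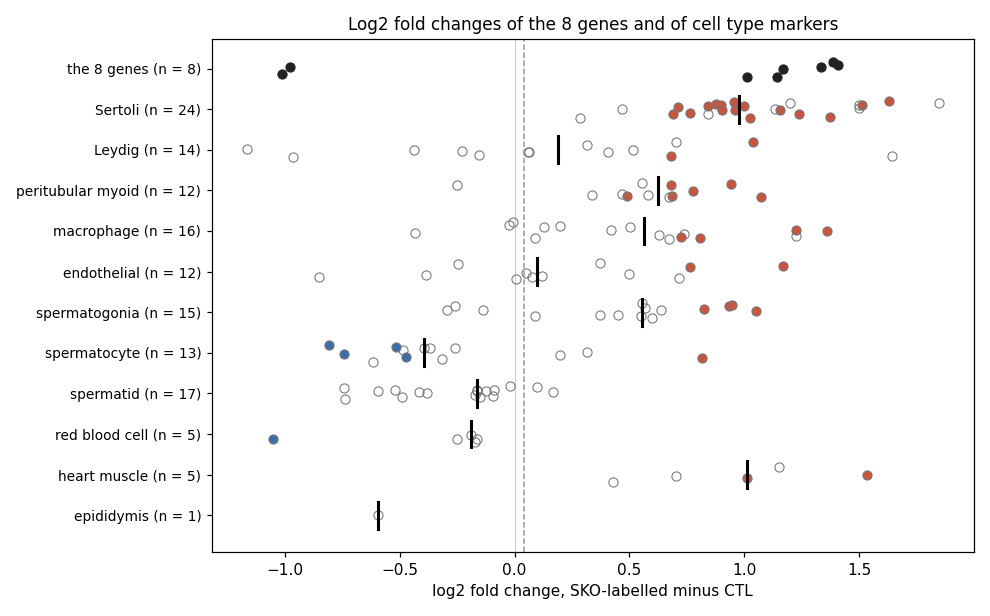
Log2 fold change (horizontal axis, SKO-labelled minus CTL) of the 8 genes (black) and of the markers of 11 cell types, with filled points for genes called by limma, black bars for list medians and a dashed line for the median of all genes. The 6 higher members, at 1.01 to 1.41, lie in the ranges of the Sertoli, heart muscle and Leydig markers. The medians of these lists are 0.98, 1.01 and 0.19, and the Leydig range exceeds 1.04 only through Ptgds (1.64), which was not called. Shisa3 and Hap1 lie below the lowest spermatocyte marker, at -0.81. They lie within the ranges of the Leydig and red blood cell markers, which reach down to -1.17 and -1.05.

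Each gene was then read relative to the Sertoli score of its own library, the mean log2 value of the 24 markers. The score was 11.74, 11.65, 10.95 and 11.20 across CTL libraries 1 to 4 against 12.51, 12.59, 12.59 and 12.07 across SKO-labelled libraries 1 to 4, a difference of 1.05. On this scale the groups overlapped for all 6 higher members. Subtracting the score takes 1.05 from every gene's difference and brings in the score's own spread. The overlap of the higher members, and the wider gap of Shisa3 and Hap1, were therefore largely set in advance. The share of all genes that overlap on this scale was not computed. Rgs2 minus the score was -0.56 ± 0.38 in CTL and -0.45 ± 0.28 in SKO-labelled libraries, and Cmtm3 minus the score -1.29 ± 0.37 and -1.20 ± 0.23 (SD, n = 4 each). The difference between the groups was -0.04 for Etnk2, 0.28 for Tafa5, 0.33 for Fabp5 and 0.35 for Trip6. Shisa3 and Hap1 moved further apart, from 0.81 ± 0.47 to -1.26 ± 0.21 and from 1.18 ± 0.51 to -0.85 ± 0.33 (SD, n = 4 each), and their groups did not overlap.

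The spread within the groups is given here as a description, since a small spread is what the members were chosen for. The score spanned 0.785 log2 units among CTL libraries and 0.524 among SKO-labelled libraries. Rgs2 spanned 0.203 and 0.118, and Cmtm3 0.0767 and 0.155. Between CTL libraries with more and with less 18S the score differed by -0.618, while Rgs2 differed by 0.0393, Cmtm3 by -0.0164, Etnk2 by -0.098, Tafa5 by -0.212, Fabp5 by -0.299 and Trip6 by -0.363. SKO 4, the SKO-labelled library with more 18S, differed from the others by -0.498 in the score, -0.196 in Trip6 and 0.0572 in Rgs2. The SD of Rgs2 minus the score among CTL libraries, 0.38, was close to that of the score alone, 0.37. The part of 18S in these values was not tested.

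**Figure D3:**
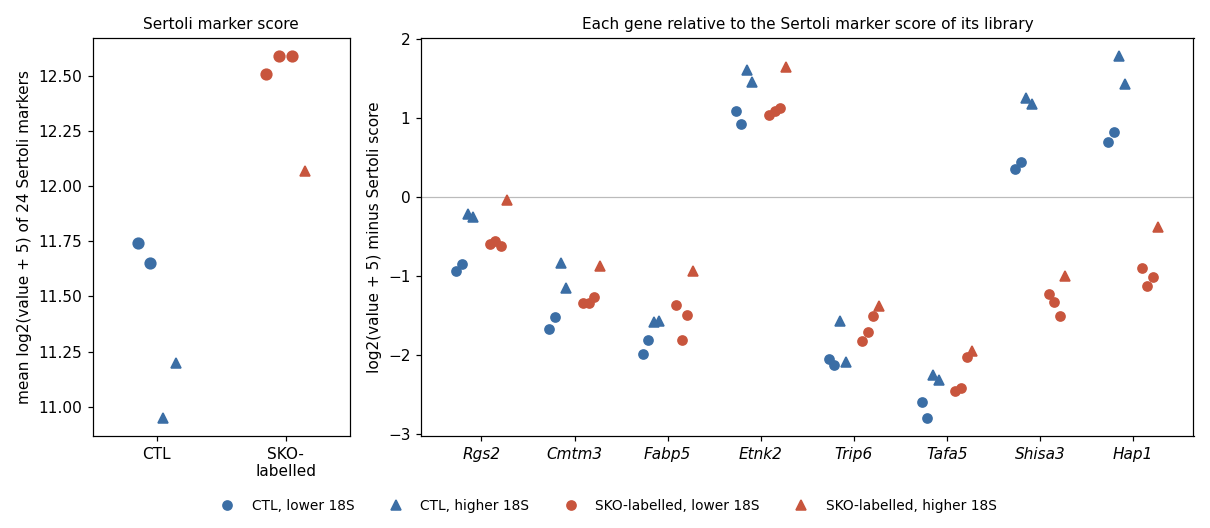
Left, the mean log2(value + 5) of 24 Sertoli markers in each library. Right, log2(value + 5) of each of the 8 genes minus that score, with CTL libraries in blue, SKO-labelled libraries in red and triangles for libraries with more 18S. The colours overlap for the 6 higher members and are separate for Shisa3 and Hap1, and for Rgs2 the triangles are the highest points of either colour.

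Relative to the myoid, spermatocyte, Leydig, macrophage and spermatogonial lists, the groups did not overlap for any of the 8 genes. The endothelial, blood, heart and epididymis lists were not used in this way. Since the members were chosen for wide separation, this count is a description. The share of all genes without overlap on these scales was not computed. Relative to the mean of 12 myoid markers Rgs2 went from -0.49 ± 0.14 to 0.09 ± 0.16 and Trip6 from -1.88 ± 0.19 to -1.06 ± 0.11 (SD, n = 4 each). Relative to the mean of 13 spermatocyte markers Shisa3 went from -2.64 ± 0.09 to -3.38 ± 0.20 and Hap1 from -2.27 ± 0.16 to -2.97 ± 0.05 (SD, n = 4 each), so that a difference of -0.73 and -0.70 stood beside the list's own change. Relative to the spermatid markers the groups overlapped for all 8 genes, with SDs for Rgs2 of 1.34 in CTL and 0.79 in SKO-labelled libraries.

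Among themselves the members formed a higher and a lower pattern. The measure used here takes in the difference between the groups, for which the members were chosen. The split into these patterns was therefore set in advance, and likeness to other genes partly reflects a similar fold change. With each gene's log2 values centred on their mean over the 8 libraries, the root mean square difference between Rgs2 and Cmtm3 was 0.0862, the smallest of all pairs, and that between Cmtm3 and Etnk2 was 0.119. Shisa3 and Hap1 differed by 0.134 and Trip6 and Tafa5 by 0.142. The largest difference among the higher members was 0.258, between Etnk2 and Trip6. By the same measure over the 8 libraries and 13042 other genes, those most like each member were found. For Etnk2 they were Hebp2 (0.0573), Lsp1 and Lmo4, for Rgs2 Zfp760 (0.102), Tmem223 and Trim26, and for Cmtm3 Trim26 (0.106), Arpc1b and Hebp2. Trip6 was most like Scx (0.12), Ddr1 and Sat2, and Tafa5 most like Acp7 (0.123), Scx and Tm6sf1. Fabp5 was most like Snhg18 (0.144), Clybl and Tnni3. Shisa3 was most like Gldnos (0.0976), Nup210l and Hmcn2, and Hap1 most like Itprip (0.0648), Slc2a5 and Iqch. Of these genes Tnni3 alone was in a marker list, that of heart muscle.

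Relatives of each gene were counted next, to be read beside the 11.9% of all genes called higher and the 7.93% called lower. Around Rgs2, of 21 other RGS proteins and genes of Gq signalling 2 rose and 4 fell (median log2 fold change 0.01). Rgs11 rose 2.07-fold (limma adjusted p = 0.0487) and Gna14, for a Gq-class alpha subunit, 1.76-fold (limma adjusted p = 0.0254). Rgs22, a testis member of the RGS family, averaged 28150 ± 3175 in CTL but 15410 ± 1286 in SKO-labelled libraries (SD, n = 4 each; limma adjusted p = 0.0122). Plcb2, a phospholipase gene, was 1.96-fold lower (limma adjusted p = 0.0232).

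Around Cmtm3, of 9 other CKLF-like and MARVEL genes 2 rose and 0 fell (median 0.39). Cmtm8, at a low level, averaged 35.5 ± 6.01 in CTL and 113 ± 28.2 in SKO-labelled libraries, and Cmtm7 averaged 223 ± 12.2 and 398 ± 36.5 (SD, n = 4 each, with limma adjusted p = 0.0159 and 0.0168). Around Fabp5, of 9 other lipid-binding protein and PPAR genes 2 rose and 0 fell (median -0.10). Ppard, for a nuclear receptor to which FABP5 delivers ligands, rose 1.99-fold (limma adjusted p = 0.0218). Around Etnk2, of 13 other genes of phosphatidylethanolamine and phosphatidylcholine synthesis 2 rose and 1 fell (median -0.24). Cept1, whose product adds the head group to both lipids, rose 1.67-fold (limma adjusted p = 0.0293), Sgpl1, which releases phosphoethanolamine from sphingosine phosphate, rose 1.52-fold (limma adjusted p = 0.0232), and Ptdss2, a phosphatidylserine synthase gene, was 1.54-fold lower (limma adjusted p = 0.0153).

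Around Trip6, of 18 other zyxin family and focal adhesion genes 3 rose and 0 fell (median 0.31). Wtip, a relative of Trip6, rose 1.94-fold (limma adjusted p = 0.0225) and the adhesion gene Fblim1 1.59-fold (limma adjusted p = 0.0301). Around Tafa5, none of 5 TAFA and sphingosine phosphate receptor genes passed (median 0.38), and the most abundant, S1pr3, had 1220 ± 511 and 1091 ± 165 (SD, n = 4 each; limma adjusted p = 0.866). Around Shisa3, 1 of 23 Shisa, Frizzled and FGF receptor genes rose and 0 fell (median 0.36), while Shisa3 itself stood lower. The gene that rose was Fzd7, for a Wnt receptor, at 1.89-fold (limma adjusted p = 0.0134). Around Hap1, of 16 partners of huntingtin and HAP1 0 rose and 2 fell (median -0.15). Ahi1, whose product binds HAP1, was 1.91-fold lower (limma adjusted p = 0.0156) and Hgs, for an endosome sorting protein, 1.59-fold lower (limma adjusted p = 0.0190).

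**Figure D4:**
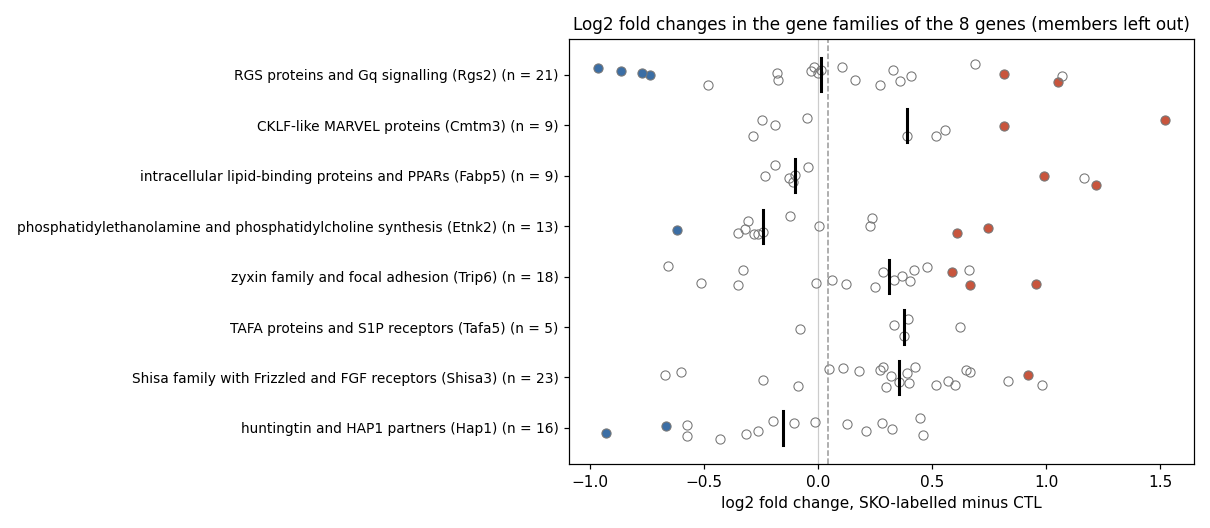
Log2 fold change (horizontal axis, SKO-labelled minus CTL) of the tested relatives of each member, with filled points for genes called by limma, bars for list medians and a dashed line for the median of all genes. Called genes lie on both sides in the lists around Rgs2 and Etnk2, only above in those around Cmtm3, Fabp5, Trip6 and Shisa3, and only below in that around Hap1.

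The sizes given for the 8 genes moved most when column totals or Sertoli markers set the scale. Within the 5 libraries with less 18S the log2 fold changes were 1.17 for Rgs2, 1.146 for Cmtm3, 1.21 for Fabp5, 0.94 for Etnk2, 1.28 for Trip6, 1.27 for Tafa5, -0.88 for Shisa3 and -0.90 for Hap1. Within CTL 3, CTL 4 and SKO 4, where SKO 4 has no partner, they were 1.195, 1.12, 1.64, 1.12, 1.45, 1.34, -1.21 and -0.99 in the same order. Leaving out each library in turn gave 1.09 to 1.19 for Rgs2 and -1.10 to -0.98 for Shisa3. With column totals in place of TMM factors the values were higher by about the shift of all genes, whose median moved to 0.33. Rgs2 came to 1.46 and Hap1 to -0.69. Holding the Sertoli markers level moved the median of all genes to -0.995. Rgs2 then came to 0.12, Cmtm3 to 0.10, Etnk2 to -0.04, Shisa3 to -2.06 and Hap1 to -2.03.

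**Figure D5:**
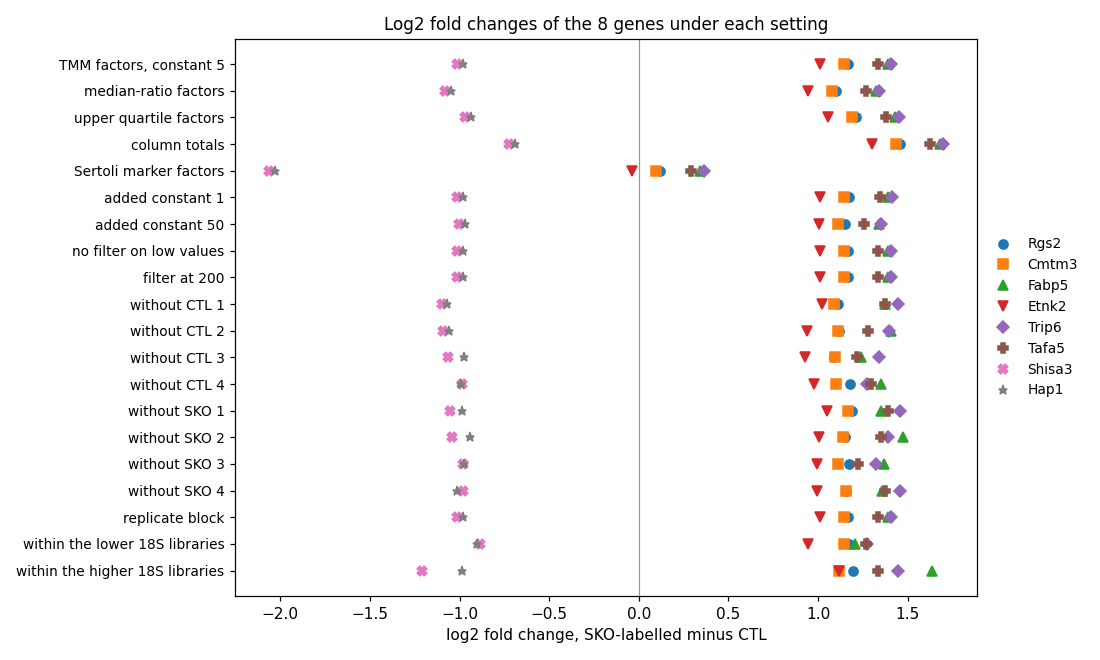
Log2 fold change (horizontal axis, SKO-labelled minus CTL) of each of the 8 genes under the scaling used here (top row) and 19 other settings. The higher and the lower genes stay apart throughout, and the row with Sertoli marker factors alone brings the higher genes close to 0, between -0.04 and 0.36.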

How the data were processed

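RNA-seq was measured in 8 mouse testis libraries, grouped by title. The submitters' processing notes list HISAT2 2.0.5 and featureCounts 1.5.0-p3, next to CASAVA and fastp, and the build mm10. How multiply mapped reads were treated was not stated there. The deposited table holds a score, since the authors scaled each library's read counts by its own factor before rounding. The values themselves show this in 6 libraries: every value up to 1000 (100%) equals a whole number times the factor, after rounding, while chance would give 43.1% to 68%. No factor was read for CTL 1 and CTL 2.

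Because the values are not raw counts, no count model was used. The filter kept genes that reached 25 in 4 or more libraries. TMM factors (30% and 5% trimmed) put the libraries on a common scale, and the values were fitted as log2(value + 5) with limma 3.58.1 in R 4.3.3, with a mean-variance trend. Tests were two-sided, and p-values were adjusted after Benjamini-Hochberg across every gene tested (threshold 0.05). The fit was tested on simulated data. Fold changes are 2 to the power of the log2 fold change. The members and lists were chosen with earlier results of these data known, and the 18S limit of 0.5% and the comparison with lists other than Sertoli were chosen after values had been seen. The named genes are the members, N6amt1, up to 1 risen and 1 fallen gene of each marker list and up to 2 of each family list with the largest change (the most abundant if none passed), and the 3 genes most like each member with a mean of at least 200, leaving out clone and model names. A named gene of 1 family list is not reported here. Promoters are RefSeq's, exons GENCODE M21's. The alternatives were other scalings, added constants, filters, leaving out each library, a replicate block and either 18S set. Between any 2 libraries chi-square per gene was 36.3 or more, so none was a duplicate.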

Additional observations from a re-analysis of the deposited data

Results flagged for a closer look

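Among 18 groups of 4 values (the 8 genes and N6amt1 in each genotype group), 1 held a library far from the rest: Fabp5 in SKO 2, at 1748, against 2186 to 2251 in the other SKO-labelled libraries. The gap to the nearest library was 0.871 of the group's range. Chance flags about 1 in 20 such groups. Without SKO 2 the log2 fold change of Fabp5 was 1.48.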

How the results depend on the processing

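Outside the scaling by Sertoli markers, all 8 genes kept their direction and groups without overlap in 18 other settings, which their choice for wide separation largely fixes. With Sertoli factors the groups overlapped for all but 2 genes, and the log2 fold changes of Etnk2 (-0.0392), Hsd3b1 (-0.0113), Dmc1 (-0.23), Gna14 (-0.23), Cmtm7 (-0.22), Ppard (-0.0513), Cept1 (-0.30), Sgpl1 (-0.44), Wtip (-0.0905), Fblim1 (-0.38), Fzd7 (-0.13) and N6amt1 (-0.85, limma adjusted p = 0.0313) changed sign, as this scaling by construction sets the Sertoli markers to no mean change. The genes called higher and lower were 2039 and 1354, and became 6 and 10737 with Sertoli factors, 4885 and 456 with column totals, 3199 and 2281 using low-18S libraries alone and 45 and 267 using high-18S libraries alone. The share of calls that were higher was 60.1% for TMM, 49.1% for median-ratio, 67.5% for upper quartile, 91.5% for column totals and 0.0559% for Sertoli factors. Leaving out 1 library gave 0 to 2456 genes higher and 0 to 1526 lower. Without SKO 3 limma called 0 genes (smallest adjusted p 0.0569, 4791 genes at an unadjusted p below 0.05), so that no list gene named kept its call. Dropping CTL 3 left 689 higher and 548 lower, dropping SKO 1 left 813 and 470, dropping SKO 2 left 825 and 503, and dropping CTL 2 left 1108 higher. The cause was not tested. Sertoli markers called higher, 16 in all, were 0 with Sertoli factors, 5 within the higher 18S libraries and 0 to 17 without 1 library (9 without CTL 3, 10 without SKO 2). Whether the replicate numbers pair the libraries was not tested. Deviations of same-numbered libraries had correlations across genes of 0.673, 0.0119, 0.082 and 0.231. Those of differently numbered CTL and SKO-labelled libraries ran from -0.717 (CTL 4 with SKO 1) to 0.706 (CTL 2 with SKO 1). With a replicate block 2163 genes were higher and 1701 lower. Depth beyond the 6 libraries with a readable factor is unknown.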
